A study of Mus musculus with 56 samples.

Results

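Medullary thymic epithelial cells (mTECs) use a small group of chemokines to draw T cells and dendritic cells into the thymic medulla, and 7 of these genes are described here: Ccl21a, Ccl19, Ccl17, Ccl22, Ccl20, Cxcl16 and Cxcl10. They were taken by name from the 50600 genes in the expression tables, with earlier results of these data known, and each was found by its Ensembl identifier. All 7 were measured by poly-A RNA sequencing in the 56 samples of the study, 28 of mTECs and 28 of cortical thymic epithelial cells (cTECs). The cells were sorted from thymi of B6.SJL female mice as EpCAM+CD45- cells, with UEA1 binding in mTECs and none in cTECs, and each replicate came from 1 mouse. Samples labelled D-2 were taken on day 18 of gestation after mating with BALB/cJ males, those labelled D0 to D28 on that day after delivery, with the litter taken away at birth, and NPC are non-pregnant females matched for age, whose age the labels do not state. For each cell type there were 3 samples of NPC and of D-2, 3 at each of D0, D3, D6 and D12, and 1 on each of 10 other days. The 18 samples of D0 to D12 are called early here and the 4 of D16 to D28 late.

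Chemokines are small secreted proteins that guide cells carrying the matching receptor. Ccl21a and Ccl19 are ligands of CCR7, the receptor by which positively selected thymocytes move from the cortex to the medulla. Ccl17 and Ccl22 bind CCR4 on medullary thymocytes and dendritic cells, Ccl20 binds CCR6, Cxcl16 binds CXCR6, and Cxcl10 is an interferon-inducible ligand of CXCR3.

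Ccl21a lies on the minus strand of chromosome 4 (GRCm38, chr4:42772860-42773993), near Ccl19 on the same strand (chr4:42754525-42756577). The mouse genome also holds 4 close copies of Ccl21a on chromosome 4, named Ccl21b, Gm13304, Gm21541 and Gm10591 in the annotation, and their reads bear on every value of Ccl21a. Over the 402 bases of the coding sequence each copy is 99.5% identical to Ccl21a and differs at 2 bases, T84A and C194T, with Ccl21a's base first and positions counted from 1 at the A of the start codon. They fall in codons 28 and 65. Coding bases 69 to 209 of Ccl21a and of Gm13304, the copy with the highest median FPKM, are shown because they hold both differences, marked by capitals:
Ccl21a: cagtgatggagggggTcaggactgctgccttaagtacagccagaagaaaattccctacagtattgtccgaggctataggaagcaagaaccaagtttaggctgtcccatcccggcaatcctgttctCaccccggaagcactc
Gm13304: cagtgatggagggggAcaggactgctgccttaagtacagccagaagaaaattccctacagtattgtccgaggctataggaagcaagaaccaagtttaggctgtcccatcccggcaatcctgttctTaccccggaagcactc
Ccl21b, Gm21541 and Gm10591 carry the same letters as Gm13304 in this stretch. Of all 75-base windows of the Ccl21a transcript in GENCODE M21, which may not be the authors' annotation, 61.3% also occur in a copy. For Ccl19, 45.3% of windows also occur in other annotated genes (Ccl19-ps1, Ccl19-ps3, Gm12407 and Gm2564). For the other 5 chemokines 0% of windows are shared, so their counts do not depend on how shared reads were divided.

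Total estimated counts ranged from 4561208 to 108547384 per library. The labelled cell types differed in some of their markers. Aire, the regulator of self-antigen expression in mTECs, had a median of 96.5 FPKM in mTECs and 5.66 in cTECs. FPKM are fragments per kilobase of transcript, scaled to the mapped fragments of the library. Prss16, a cortical protease, had 139 and 1798. Of the other mTEC markers listed, Fezf2 (99.53 to 195 FPKM against 17.94 to 63.73) and Tnfrsf11a (15.6 to 53.77 against 1.59 to 9.38) did not overlap between the cell types. Krt5, Krt14, Cldn3, Cldn4 and Cd80 did overlap, with Krt14 at 636.4 to 1339 FPKM in mTECs and 149.4 to 730.7 in cTECs. In the cTECs, the summed FPKM of 10 cortical markers was 1789 to 3230 at D-2 and 14290 to 15860 at D6, so this sum was much lower at D-2. Enpep and Cxcl12 of that list were at least 21.98 and 284.5 FPKM in every cTEC sample, D-2 included. Their highest mTEC samples had 13.24 and 191.8 FPKM. The other markers of the list overlapped between the cell types over all samples. Some libraries stood apart. In 5 libraries (mTEC D0 replicate 2, mTEC D3 replicates 1 and 2, cTEC D3 replicate 2 and cTEC D20) the median correlation with the other libraries of their cell type was under 0.8, and 8 libraries had at least 600 FPKM of the stress-response factor Atf3. In bulk samples, fewer expressing cells and less RNA per cell cannot be told apart.

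Ccl21a was the most abundant of the 7 chemokines by far. In mTECs it ranged from 7515 to 15266 FPKM with a median of 11669, ranked 1 or 2 among all genes in every library, and made up 83.7% to 97.5% of the summed FPKM of the 7 genes. Cxcl10 followed with a median of 386 FPKM, then Ccl19 with 131, Cxcl16 with 57.1, Ccl20 with 18.1, Ccl22 with 15.6 and Ccl17 with 7.91. Each gene down to Cxcl16 exceeded the next in 28 of 28 mTEC libraries. Ccl20 exceeded Ccl22 in 17 of 28, so these neighbours were not separated beyond their spread, and Ccl22 exceeded Ccl17 in 24 of 28. In cTECs the order was Ccl21a, Cxcl10, Cxcl16, Ccl19, Ccl20, Ccl22 and Ccl17, with medians of 4091, 315, 49.4, 32.9, 3.46, 2.78 and 0.18 FPKM. Here Ccl20 exceeded Ccl22 in 13 of 28 libraries.

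**Figure D1:**
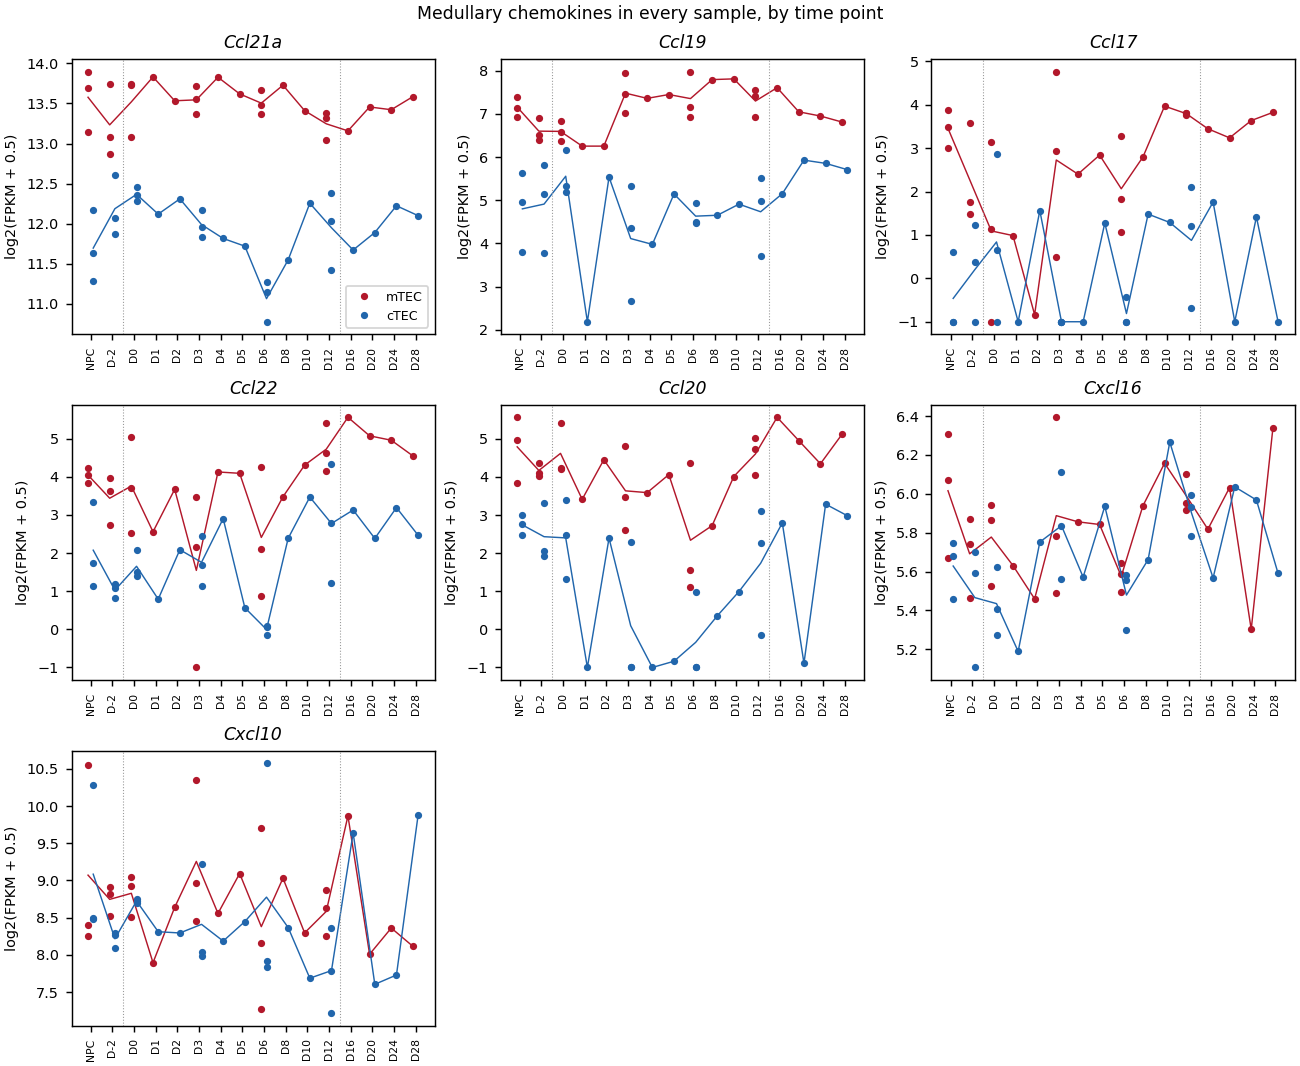
Level of each chemokine as log2(FPKM + 0.5) against time point, with 1 point per sample, mTECs in red and cTECs in blue, lines through the mean of each time point and dotted lines after D-2 and D12. All mTEC points of Ccl21a and Ccl19 lie above all cTEC points, whereas the points of Cxcl16 and Cxcl10 are mixed.

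The first comparison asked which of these chemokines distinguish mTECs from cTECs. Averaged over the 6 time points with 3 samples of each cell type, 5 of the 7 were higher in mTECs at a fold of at least 2 and an adjusted p of at most 0.01 in limma-voom, and none was lower. Among all 18394 genes tested, 17% passed in either direction, 12.3% higher and 4.71% lower in mTECs. The median log2 difference was 2.04 over the 7 chemokines and 0.00 over all genes.

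The CCR7 ligands separated the cell types in every library. Ccl21a was 2.95-fold higher in mTECs (log2 difference 1.56 ± 0.10 SE, adjusted p = 1.4e-13), and its lowest mTEC sample (7515 FPKM) lay above its highest cTEC sample (6267 FPKM). Ccl19 differed more, by 5.42-fold (2.44 ± 0.24, adjusted p = 6.5e-10), with a lowest mTEC sample of 75.7 and a highest cTEC sample of 71.2 FPKM. Such complete separation of 28 mTEC from 28 cTEC samples was found in 0.56% of all genes tested. Among the alternatives tried, Ccl21a missed the threshold only when no filter on low expression was used (log2 difference 1.46, adjusted p = 0.51).

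The CCR4 and CCR6 ligands were also higher in mTECs, at far lower levels. Ccl17 differed by a log2 value of 3.82 ± 0.62 (adjusted p = 7.2e-06). Its counts were 0 in 13 of 28 cTEC libraries and in 1 mTEC library. Ccl20 differed by 3.38 ± 0.52 (adjusted p = 2.8e-06), and 24 of 28 mTEC samples exceeded the highest cTEC sample of 10 FPKM. Ccl22 differed by 2.04 ± 0.57 (adjusted p = 0.0043), with 7 of 28 mTEC samples above the highest cTEC sample of 19.7 FPKM, a D12 sample. The call of Ccl22 was the least secure. It was lost without the libraries of high Atf3 (1.98, adjusted p = 0.026) and with sample quality weights (1.91, adjusted p = 0.012). It was also lost on leaving out mTEC D3 replicate 2 (1.72, adjusted p = 0.02), mTEC D3 replicate 3 (1.90, adjusted p = 0.012) or mTEC D6 replicate 1 (1.85, adjusted p = 0.014).

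Cxcl16 and Cxcl10 were expressed in both cell types. Cxcl16 ranged from 39 to 83.6 FPKM in mTECs and from 34 to 76.5 in cTECs, and its log2 difference of 0.23 ± 0.07 (adjusted p = 0.0098) was below the 2-fold limit. Cxcl10 ranged from 155 to 1503 FPKM in mTECs and from 148 to 1528 in cTECs, and its difference of 0.25 ± 0.23 did not pass (adjusted p = 0.4).

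**Figure D2:**
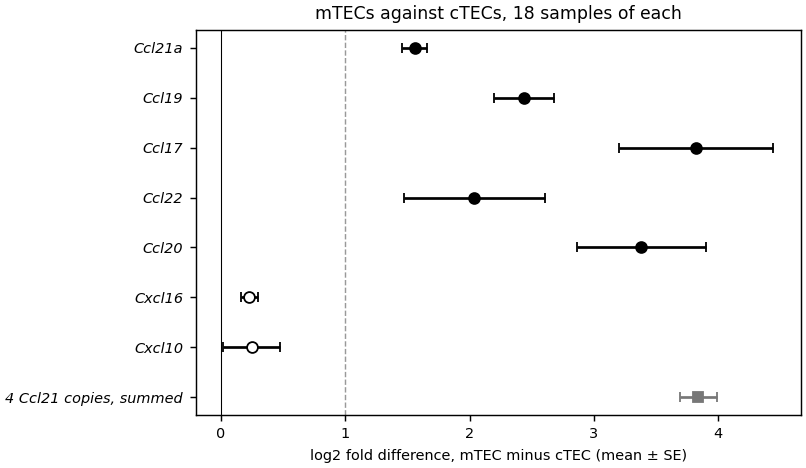
Log2 fold difference between mTECs and cTECs over the 6 replicated time points (18 samples of each, limma-voom estimate ± SE). Filled circles passed the test, the dashed line marks a 2-fold difference, and the grey square gives the 4 Ccl21a copies summed to 1 row, at 3.84.

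Markers of other cell types differed between the sorts as well. Of the dendritic cell list 8 of 12 genes were tested and 6 were higher in mTECs, against 12.3% of all genes, with a median log2 difference of 2.12. All 8 passed the filter on low expression in mTECs but only 4 in cTECs. The rest were tested through mTECs alone, which favours higher calls there, so this count is not evidence of enrichment. In mTECs Fscn1 and Ccr7, genes of mature dendritic cells, had medians of 58.2 and 9.61 FPKM. The summed FPKM of that list was 283 to 732 in mTECs and 280 to 861 in cTECs, with Cst3 alone, a gene of many cell types, at medians of 494 and 588. Itgax, Clec9a, Siglech, Xcr1, Clec10a and Cd209a had medians of 0 to 0.33 FPKM in mTECs, with Itgax at 14.55 in its highest library. Zbtb46, Batf3 and Flt3 had mTEC medians of 5.335, 1.2 and 0.82 FPKM, and Zbtb46 was above 0 in every mTEC library. Of 12 macrophage genes 6 were higher and 1 lower in mTECs, with sums of 36.3 to 235 against 29.3 to 74. Of 4 B cell genes tested 1 was higher, and of 7 endothelial genes tested 3 were higher. Of 10 fibroblast genes 4 were higher and 1 lower, and of 20 thymocyte genes 10 were lower in mTECs. Among all genes 12.3% were higher and 4.71% lower. All 20 thymocyte genes passed the filter in cTECs and 19 did in mTECs. Of the macrophage, B cell, endothelial and fibroblast genes tested, only 9, 2, 4 and 7 passed the filter in cTECs, with the same limit. Ccl17 and Ccl22 are also made by dendritic cells and macrophages, and the part of such cells in the differences was not tested.

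The 4 copies of Ccl21a were divided between the cell types differently from Ccl21a itself. With their counts summed to 1 row, the copies were 14.3-fold higher in mTECs (log2 difference 3.84 ± 0.15, adjusted p = 5e-19), against 2.95-fold for Ccl21a in the same fit. They held a median of 18.8% of all Ccl21 counts in mTECs (range 14.8% to 27%) and 4.74% in cTECs (2.03% to 10.1%), and the ranges did not overlap. The mean share was 19.5% ± 2.9 (SD, n = 28) in mTECs and 5.3% ± 2.1 (SD, n = 28) in cTECs, a difference of 14.2 percentage points (permutation test over samples, two-sided, p = 2e-05, the smallest that 100000 resamples can give). Gm13304 took most of these reads, with a median of 2326 FPKM in mTECs and 134 in cTECs. The copies were resolved to different degrees. Each was listed at 0 in at least 3 mTEC libraries, and the posterior SD of the estimated count, as the quantification gave it, had a median in mTECs of 73.3% of its mean for Ccl21b, 74.1% for Gm10591, 12.8% for Gm21541 and 3.31% for Gm13304, against 0.102% for Ccl21a. Adding the copies to Ccl21a raised its difference to a log2 value of 1.80.

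**Figure D3:**
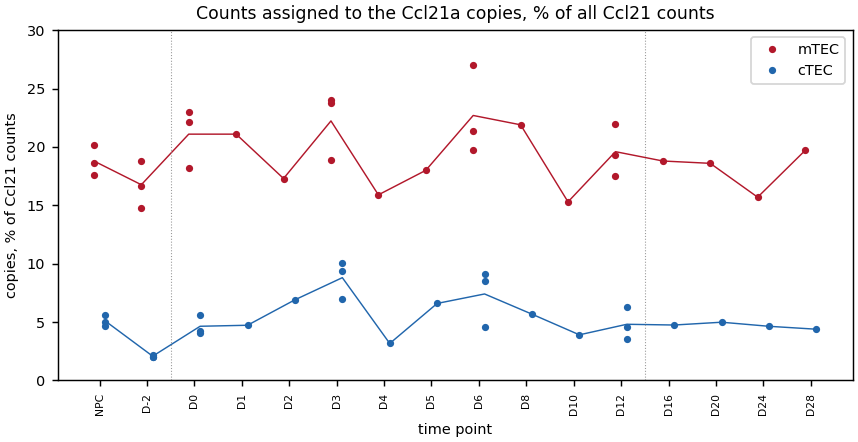
Counts assigned to Ccl21b, Gm13304, Gm21541 and Gm10591 together, as a percentage of all Ccl21 counts, against time point, with 1 point per sample and lines through the mean of each time point. All mTEC points lie at 14.8% or above and all cTEC points at 10.1% or below.

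The next comparisons asked whether the chemokines changed with pregnancy, after delivery and during later recovery. In mTECs, 0 of the 7 passed for D-2 against NPC (0.569% of 17743 genes passed), 0 of 7 for D6 against D-2 (0.0113%), 0 of 7 over the 6 time points together (0.558%, adjusted p of at most 0.01 alone) and 0 of 7 for late against early samples (0.062%). Their median log2 differences were -0.43, -0.24 and -0.04 in the 3 comparisons of pairs, against 0.12, -0.03 and -0.01 over all genes. At an unadjusted p under 0.05 there were 0, 1, 3 and 3 of the 7. In simulated mTEC counts, 26.5% of genes changed by a fold of 4 were called for D6 against D-2. For late against early samples 55.5% were called, so a gene that did not pass here may still have changed. The changed genes were drawn from those with higher mean counts, so recovery of low genes was not tested. Of the simulated calls, 5.36% for D6 against D-2 and 14.6% for late against early were false. Those shares exceed what a threshold of 0.01 allows. In cTECs 1 of 7 passed for D6 against D-2, where 1.58% of 15845 genes did, and 0 of 7 for D-2 against NPC (0.0947%), over time (1.07%) and late against early (1.41%), with 1, 2 and 2 at an unadjusted p under 0.05. The difference between the cell types did not pass for any of the 7 in its dependence on time (0.0979% of genes passed), from D-2 to D6 (0.0109%) or from early to late (0.00544%), with 1 of 7 at an unadjusted p under 0.05 in each. edgeR and DESeq2 also called 0 of 7 in the mTEC comparisons and in these differences. In cTECs, DESeq2 called Ccl21a and Ccl22 over time, and edgeR called 0 of 7 for D6 against D-2.

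Ccl21a varied least among the 7 chemokines in mTECs. Its samples were 13205, 15266 and 9069 FPKM at NPC, 8643, 7515 and 13748 at D-2, and 11478, 10541 and 12968 at D6, and these groups overlapped. Over all 28 mTEC samples its coefficient of variation was 18.1%. In cTECs it was 3760, 4302 and 6267 FPKM at D-2 and 1753, 2478 and 2258 at D6, so every D6 sample lay below every D-2 sample. It fell by 1.16 on the log2 scale (SE 0.24, adjusted p = 0.0081), and the copies in the same cells differed by 0.65 ± 0.41 (adjusted p = 0.42). This call was lost on leaving out any 1 of the 6 samples compared (log2 differences -1.31 to -0.95, adjusted p 0.01 to 0.047), and in 8 of 14 other alternatives. Over the same interval the cortical markers of these cTECs passed the test in 9 of 10 cases, all higher at D6, and the part of the sorted cells' identity in the fall of Ccl21a was not tested. The change in mTECs minus that in cTECs was 1.42 ± 0.37 (adjusted p = 0.24), and it passed with sample quality weights (1.72, adjusted p = 0.00073). By time point the difference between the cell types was lowest at D-2 (1.06 ± 0.26) and highest at D6 (2.48 ± 0.26).

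Ccl19 had its lowest mTEC values around delivery. It was 83, 120 and 90 FPKM at D-2 and 94.7, 82.9 and 113 at D0, then 75.7 in the single samples of D1 and D2. From D3 on, the samples lay between 112 and 251 FPKM, with 251, 120 and 143 at D6. The D6 minus D-2 estimate was 0.81 ± 0.30 with an adjusted p of 0.43, and the time course had an adjusted p of 0.16. In cTECs Ccl19 was 35 to 60.4 FPKM in the 4 late samples, all above the early median of 29.8, and 6 of 18 early samples reached the lowest late one. The estimate of 1.32 ± 0.35 had an adjusted p of 0.02, past a threshold of 0.05 but not of 0.01. The late minus early difference of mTECs minus that of cTECs was -1.40 ± 0.47 (adjusted p = 0.25).

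Ccl22 and Ccl17, the CCR4 ligands, varied widely among mTEC samples of the first week. Ccl22 was 12.5, 32.5 and 5.26 FPKM at D0, 0, 10.6 and 3.99 at D3, 17 and 16.6 in the single samples of D4 and D5, and 18.7, 1.32 and 3.8 at D6. The 0 (D3 replicate 1) and the 32.5 (D0 replicate 2) came from libraries of low correlation. Ccl22 was then 17.1, 24.2 and 42.1 at D12 and 46.7, 33.2, 30.6 and 22.9 at D16, D20, D24 and D28. All 4 late samples exceeded the early median of 12.4, and 3 of 18 early samples reached the lowest late sample. The late minus early estimate of 1.11 ± 0.38 did not pass (adjusted p = 0.1), nor did the time course (adjusted p = 0.059, and 0.028 to 0.54 over the alternatives). In cTECs the late minus early estimate of Ccl22 was 1.21 ± 0.44 (adjusted p = 0.074). Ccl17 was 10.4, 8.93, 11.9 and 13.7 FPKM in the late mTEC samples, above the early median of 6.55, whereas early samples ran from 0 at D0 replicate 2 to 26.7 at D3 replicate 1, both libraries of low correlation. Its late minus early estimate was 2.05 ± 0.91 (adjusted p = 0.21), and 0.54 to 2.47 over the alternatives, lowest with edgeR (adjusted p = 0.91).

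Ccl20, which in the gut guides CCR6-bearing lymphocytes to lymphoid follicles, was low in both cell types. In mTECs it was 15.8, 20.2 and 16.8 FPKM at D-2 and 20.1, 2.42 and 1.65 at D6, and 46.8, 30.5, 19.8 and 34.3 in the late samples. At D6, 2 of 3 samples lay below every D-2 sample and 1 did not. The D6 minus D-2 estimate of -1.73 ± 1.15 did not pass (adjusted p = 0.86; -2.94 to -1.02 on leaving out single samples), and passed with sample quality weights (-2.80, adjusted p = 0.00095). The late minus early estimate was 0.91 ± 0.28 (adjusted p = 0.083). In cTECs Ccl20 was 1.47, 0 and 0 FPKM at D6 against 3.64, 9.52 and 3.29 at D-2, with a D6 minus D-2 estimate of -5.23 ± 1.63 (adjusted p = 0.07). With 2 of 3 D6 samples at 0 this estimate depended on the setting: it was -6.95 without D6 replicate 1 (adjusted p = 0.031), -3.95 without D6 replicate 2 (adjusted p = 0.28) and -2.77 in limma-trend on log2(FPKM + 0.5) (adjusted p = 0.16). The cTEC samples at D1 and D4 had 0 as well.

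Cxcl16, a membrane-bound chemokine that is also shed, was 47.6, 44.6 and 49.5 FPKM in mTECs at D6 and 53, 43.7 and 57.9 at D-2. Its coefficient of variation was 20.3% in mTECs and 19.6% in cTECs, and no comparison over time passed in either cell type.

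Cxcl10 had its highest values in single libraries of several groups. In mTECs, the NPC samples had 305, 338 and 1503 FPKM, D3 samples 351, 498 and 1304, and D16 had 934. In cTECs the NPC samples had 359, 356 and 1249, the D6 samples 241, 227 and 1528, D16 had 797 and D28 941. The highest sample of each of these groups, and those of D16 and D28, are 7 of the 8 libraries with high Atf3. The eighth, cTEC D0 replicate 2, had 422 FPKM of Cxcl10 beside 416 and 428 in the other D0 samples. The 3 mTEC libraries with Atf3 of 695 to 1480 FPKM had 934 to 1503 FPKM of Cxcl10, and the 25 others 155 to 835. The 5 cTEC libraries with Atf3 of 825 to 1682 FPKM had 422 to 1528, and the 23 others 148 to 594. As a description, log2(FPKM + 0.5) of the 2 genes correlated with r = 0.86 (Spearman's rho 0.80) over 28 mTEC samples and 0.91 (0.85) over 28 cTEC samples, and with r = 0.73 over the 25 and 0.82 over the 23 libraries without high Atf3. Without the 2 samples farthest from the median of Atf3, r was 0.79 and 0.88. The high-Atf3 libraries also had lower mitochondrial transcripts, with 13510 to 19070 summed FPKM against 17720 to 36710 in the other mTEC libraries, and what these libraries share was not tested. None of the other 6 chemokines separated them in mTECs: Ccl21a, for example, was 9069 to 12027 FPKM there and 7515 to 15266 elsewhere. The mTEC minus cTEC fit does not include D16 or D28. Without the other libraries of high Atf3, its difference for Cxcl10 was 0.26 (adjusted p = 0.13).

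**Figure D4:**
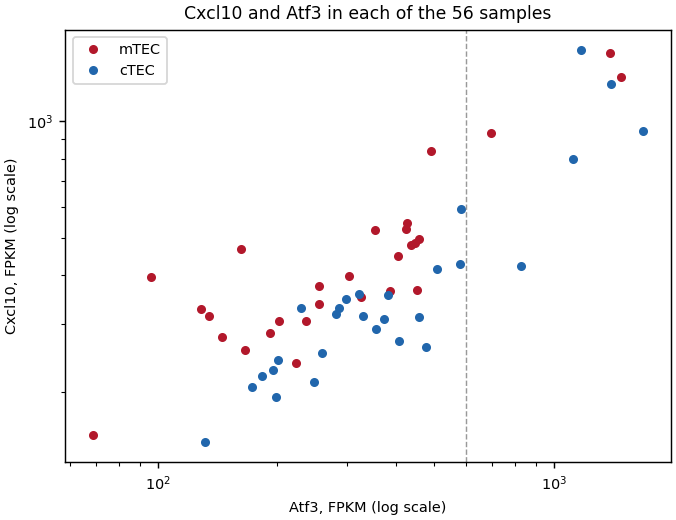
Cxcl10 against Atf3 in FPKM on log scales, with 1 point per sample, mTECs in red and cTECs in blue, and a dashed line at 600 FPKM of Atf3. The libraries to the right of the line hold 934 to 1503 FPKM of Cxcl10 in mTECs and 422 to 1528 in cTECs.

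The promoters of these genes were searched for letters bound by NF-kB, the factor downstream of the receptors RANK, CD40 and LTBR in mTECs, and by interferon-regulated factors. RefSeq promoters (GRCm38.p6, 250 bases before to 50 after the start site) were matched for 6 of the 7 genes, all but Cxcl16. The NF-kB consensus, searched on both strands, has 4 matches in the Cxcl10 promoter, with first bases at -159, -104 and -103 from the start site, the last on both strands and overlapping the one before, and 1 match in the Ccl20 promoter at -80. The interferon response core GAAANNGAAA occurs once in Cxcl10, at -213, and once in Ccl19, at -208. Positions count from the RefSeq start site. For Ccl19 that site lies inside the gene as GENCODE M21 gives it, whose 5′ end is at 42756577. The Ccl19 match therefore lies within that annotated gene and not upstream of it. Of all 32851 promoters of the same length 8.46% hold the NF-kB consensus and 3.44% the interferon core. The promoters of Ccl21a, Ccl17 and Ccl22 hold neither. The 3 promoters with matches are shown 5′ to 3′ on the gene's strand, with the matches in capitals:
Cxcl10 (chr5:92348840-92349139, minus strand): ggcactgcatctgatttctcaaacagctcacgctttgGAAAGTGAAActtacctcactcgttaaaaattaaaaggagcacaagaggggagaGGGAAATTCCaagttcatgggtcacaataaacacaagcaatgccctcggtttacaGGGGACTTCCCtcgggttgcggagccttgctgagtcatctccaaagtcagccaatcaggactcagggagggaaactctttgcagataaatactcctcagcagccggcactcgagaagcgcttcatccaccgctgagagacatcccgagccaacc
Ccl20 (chr1:83116516-83116815, plus strand): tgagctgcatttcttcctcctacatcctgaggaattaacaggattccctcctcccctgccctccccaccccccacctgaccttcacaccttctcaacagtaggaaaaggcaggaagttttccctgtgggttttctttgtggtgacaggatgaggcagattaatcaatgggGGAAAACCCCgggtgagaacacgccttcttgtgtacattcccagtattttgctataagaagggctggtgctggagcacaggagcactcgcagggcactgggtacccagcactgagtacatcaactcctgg
Ccl19 (chr4:42756316-42756615, minus strand): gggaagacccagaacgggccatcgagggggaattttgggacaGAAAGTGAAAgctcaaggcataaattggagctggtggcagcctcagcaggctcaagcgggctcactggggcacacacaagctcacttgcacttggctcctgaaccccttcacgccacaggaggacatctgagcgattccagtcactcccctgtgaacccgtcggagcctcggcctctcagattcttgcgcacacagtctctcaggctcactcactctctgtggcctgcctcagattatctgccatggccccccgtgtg
A match describes these letters and is not a measured binding site.

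The other genes of these pathways were read from lists set with earlier results known. Of 30 other chemokines 27 were tested and 14 differed between the cell types, 12 higher and 2 lower in mTECs, with a median log2 difference of 2.03 against 0.00 over all genes. All 27 passed the filter on low expression in mTECs but only 20 in cTECs. The rest were tested through mTECs alone, which favours higher calls there, so the count and median are not evidence of enrichment. The 5 with the largest differences were Cxcl14 (4.56 ± 0.47), Cxcl9 (4.08 ± 0.40), Ccl1 (4.01 ± 0.64), Ccl9 (3.84 ± 0.60) and Ccl6 (3.00 ± 0.61). Cxcl9, which shares the receptor CXCR3 with Cxcl10, had a median of 92.4 FPKM in mTECs and 8.93 in cTECs, unlike Cxcl10. Ccl11, an eosinophil attractant with medians of 447 and 74.5 FPKM, passed over time in mTECs (adjusted p = 0.0036), as did the cortical chemokine Ccl25 (adjusted p = 0.0067). The time course of Ccl25 also differed between the cell types (adjusted p = 0.0065), with medians of 407 FPKM in mTECs and 2476 in cTECs.

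Of 10 receptors 8 were tested, and 4 were higher and 1 lower in mTECs, against 12.3% and 4.71% of all genes. All 8 passed the filter on low expression in mTECs but only 7 in cTECs. That favours higher calls in mTECs, so the count is not evidence of enrichment. Ccr6, Ccr7 and Ccr4, the receptors of Ccl20, of Ccl21a and Ccl19 and of Ccl17 and Ccl22, were higher by log2 values of 4.12 ± 0.67, 2.74 ± 0.42 and 2.66 ± 0.47, and the decoy receptor Ackr2 by 2.94 ± 0.67. Their mTEC medians were low, at 3.5, 9.61, 7.33 and 0.815 FPKM. Ackr4, an atypical receptor that removes Ccl19, Ccl21 and Ccl25, went the other way, with medians of 14.8 FPKM in mTECs and 190 in cTECs (-3.41 ± 0.16, adjusted p = 2.2e-17). Of 18 genes of the NF-kB inputs 3 were higher in mTECs, a share near the 12.3% of all genes: Tnfrsf11b (osteoprotegerin, the decoy of RANK ligand; 4.46 ± 0.55), Tnfrsf11a (RANK; 2.63 ± 0.24) and Cd40 (2.52 ± 0.30). Of 19 interferon-response genes, 2 were higher, Cxcl9 and Cxcl11 (2.72 ± 0.40), again a share near that of all genes, and the list's median log2 difference was -0.07.

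Across the 28 mTEC samples, the genes whose log2(FPKM + 0.5) followed each chemokine most closely, out of 10495 genes with a mean of at least 5 FPKM, differed from one chemokine to the next. Pearson's r is given as a description, with libraries, depth and sorted cell mixture shared by all points. Ccl22 was closest to Myl7 (0.92), Dppa3 (0.91) and Klk4 (0.91), which are genes of heart muscle, germ cells and tooth enamel. Ccl20 was closest to Reg3g (0.90), Lyz1 (0.88) and Adgrg7 (0.86), where Reg3g and Lyz1 are antimicrobial genes of the gut. Cxcl10 was closest to Odc1 (0.92), Ifrd1 (0.89) and 4930539E08Rik (0.88). Ccl21a was closest to Pebp1 (0.81), Fth1 (0.81) and Unc119 (0.80), and Ccl17 to Rangrf (0.79), Ltb (0.77) and Dpp3 (0.77). Ccl19 was closest to Gm13305 (0.75), Mcm6 (0.72) and Galnt18 (0.72), and Cxcl16 to Esrra (0.69), Mcm7 (0.67) and Slc41a1 (0.66). No 2 of the 7 chemokines had a Pearson's r above 0.59 in mTECs. By rank the closest were Ccl22 and Ccl20, with Spearman's rho 0.66 and r = 0.51.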

How the data were processed

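Per the labels and the study's methods, the authors demultiplexed reads with bcl2fastq 2.20, trimmed them with Trimmomatic 0.35, aligned them to GRCm38 with STAR 2.5.1b and quantified them with RSEM 1.2.28, a method that divides reads shared by similar genes. The annotation release is not given in the sources used here. The deposited tables hold estimated (expected) counts, TPM and FPKM per gene and sample, with the posterior means and SDs of the counts. Levels are given here in the deposited FPKM, which are comparable between genes per length, and the deposited TPM were used as an alternative unit. The 7 chemokines, the gene lists and the tests were chosen with earlier results of these data known.

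From the deposited expected counts, rounded to whole numbers, TMM-normalized limma-voom models (limma 3.58.1, edgeR 4.0.16, R 4.3.3) were fitted over all genes with a mean of at least 0.5 FPKM in the cell type (either cell type for comparisons between them), with Benjamini-Hochberg adjustment. A gene was called at a fold of at least 2 and an adjusted p of at most 0.01, F tests at the adjusted p alone. Cell types were compared over the 36 samples of 6 time points, time points within 1 cell type over its 28 samples, and late against early over 22. Each replicate is 1 mouse. Symbols came from the Ensembl identifiers with version suffixes ignored, and 50376 of 50600 matched. With the suffix, 45737 matched GENCODE M21, those of the 7 chemokines and the 4 Ccl21a copies among them, so the authors' release may be another. Named genes beside the 7 were, per list, the 5 largest differences called in a comparison of mTECs or between cell types, markers needed to check a sort, and the 3 genes closest to each chemokine. Alternatives were edgeR's quasi-likelihood test, DESeq2 1.42.0, limma-trend on log2(FPKM + 0.5) or log2(FPKM + 0.1), other scaling, no filter, quality weights, a threshold of 0.05, blocks, left-out samples and summed Ccl21 copies. Leaving out the libraries of high Atf3 or low correlation and the copies as 1 row were added after seeing the data. The scripts were tested on simulated data. Total counts of 4561208 to 108547384 per library and the number of samples set the precision.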

Additional observations from a re-analysis of the deposited data

Results flagged for a closer look

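Of the 14 groups of 4 late samples (7 chemokines in 2 cell types), 1 held a sample far from the others. Cxcl10 in late mTECs was 934 FPKM at D16 against 257 at D20, 328 at D24 and 277 at D28, a gap to the nearest sample of 0.89 of the whole range, above Dixon's 95% critical value for 4 samples. Chance flags about 1 in 20 such groups. The D16 library is also 1 of the 8 libraries with at least 600 FPKM of Atf3.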

How the results depend on the processing

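For mTECs against cTECs 5 chemokines were called, and 4 or 5 under every alternative, leaving out single samples included. The loss was Ccl21a with no filter and Ccl22 otherwise. For D6 against D-2 in cTECs, 1 was called but 0 with edgeR, with limma-trend at either pseudocount, with no filter, with the Ccl21 copies summed, without the libraries with high Atf3, with only the 6 samples compared and with the replicate block, and 0 to 0 on leaving out single samples. Sample quality weights raised the count from 0 to 1 for D6 against D-2 in mTECs (Ccl20), for its difference from cTECs (Ccl21a) and for late against early in cTECs (Cxcl10). Over time in cTECs, 0 became 1 at an adjusted p of 0.05 and 2 with DESeq2. For late against early in cTECs, 0 became 1 at 0.05 (Ccl19) and 1 without the libraries of low correlation (Ccl20). No other alternative moved these counts, no named difference changed sign, and the cause of the losses was not tested. In TPM the ratios of mTEC to cTEC medians stayed within 1.06 (Cxcl16) to 41.2 (Ccl17), against 1.16 and 44 in FPKM. Over all genes, alternatives called 2506 to 4077 genes between cell types (3131 in the report's fit), 0 to 376 for D-2 against NPC in mTECs (101), 2 to 771 for D6 against D-2 in mTECs (2), 0 to 946 over time in mTECs (99) and 1 to 184 for late against early in mTECs (11). In cTECs they called 0 to 120 (15), 74 to 568 (250), 64 to 684 (169) and 0 to 1045 (223), and for the differences between the cell types 0 to 156 over time (18), 1 to 71 from D-2 to D6 (2) and 0 to 11 from early to late (1). Leaving out single samples gave 2 to 273, 0 to 2, 1 to 583 and 11 to 46 in the mTEC comparisons, and 1 to 28, 120 to 269, 88 to 261 and 52 to 439 in cTECs. Without a filter the median log2 difference of all genes lay between -0.35 and 0.33 over the comparisons. The labels do not say whether mTEC and cTEC samples with the same number came from the same mouse. Deviations from their group means had correlations of -0.171 to 0.135 over 16 such pairs (median 0.0348, 1 above 0.1). Over 38 other pairs of the same time point they were -0.181 to 0.297 (median -0.0152). Between different cell types such values cannot decide the pairing, and the samples were treated as unpaired. With the shared number as a block, 5 chemokines were called between the cell types. The replicate block left 0 called for D6 against D-2 in cTECs. Samples of D-2 and D6 come from different mice, so that block is arbitrary and cannot test a pairing. Ccl17 had 0 counts in 13 cTEC libraries, deep ones (D1, D20 and D28) among them, and what depth limits there was not tested.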

Other observations

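Aire, looked at after its values were seen, followed Ccl22 more closely than any other of the 7 chemokines in mTECs. Over the 28 samples log2(FPKM + 0.5) of Aire and Ccl22 had r = 0.79 (Spearman's rho 0.80), given as a description since all points share their libraries and sorted mixture. Aire had r = 0.51 with Ccl20, 0.43 with Cxcl10, 0.38 with Ccl17, 0.24 with Ccl19, 0.12 with Cxcl16 and -0.51 with Ccl21a. Without the 2 samples farthest from the median of Aire, r was 0.73 for Ccl22, 0.58 for Ccl20, 0.57 for Ccl17, 0.38 for Ccl19, 0.37 for Cxcl16, 0.35 for Cxcl10 and -0.56 for Ccl21a, so the order of the chemokines after Ccl22 depends on 2 samples.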
